A study of Mus musculus with 6 samples.

Results

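The Zfp genes numbered 600 and above make up a numbered section of the mouse zinc-finger gene names, and 139 of them could be followed in leukaemic mouse pre-B cells after induced deletion of Sox4, among 19938 genes measured in all. A gene belonged to the group when its symbol was Zfp plus a number of 600 or more with nothing after it, and when at least 1 probe set was paired with that gene alone. The genes were selected on their names. The 1 measured value in the rule was the mean over the 6 arrays, by which the brightest probe set was chosen for the 8 genes that had several, with no regard to the sample groups. The cells were pre-B cells that carry BCR-ABL1, the kinase made by the Philadelphia chromosome in human acute lymphoblastic leukaemia, and came from mice of the strain 129SvEv x C57BL/6J aged 5 weeks. All were Sox4fl/fl, with both Sox4 alleles flanked by loxP sites. The 3 control samples held ERT2, a mutated oestrogen receptor domain, and the 3 test samples Cre-ERT2, in which this domain keeps Cre recombinase inactive until 4OHT (4-hydroxytamoxifen) binds. All 6 samples received 4OHT, their RNA was collected 24 h later, and each was read on its own Affymetrix array. The labels do not say which mouse or culture each sample came from, and the p-values therefore rest on a spread between samples that may be technical. No Cre-ERT2 sample had unfloxed Sox4, so effects of Cre and of Sox4 deletion cannot be told apart.

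Zfp genes encode proteins with fingers of the C2H2 type, in which cysteines and histidines hold a zinc ion and each finger reads a few bases of DNA. Many of them also carry a KRAB domain, which recruits the corepressor TRIM28 and, through it, the histone methyltransferase SETDB1, HP1 proteins and DNA methylation. KRAB zinc-finger proteins are best known for silencing endogenous retroviruses and other transposable elements. Their genes arose by repeated duplication and often lie side by side as paralogues.

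In the Cre-ERT2 cells 19 of the 139 genes were higher and 5 were lower at a limma adjusted p under 0.05, with adjustment over all probe sets of the array, and 115 did not pass. The share that rose, 13.7%, stood beside 4.38% over all genes, and the share that fell, 3.6%, beside 3.72%. Among the 178 Zfp genes numbered below 600, 9 rose (5.06%) and 10 fell (5.62%). Rises of more than 2-fold were found in 8 members, against 0.532% of all genes. Falls of that size were found in 0 members, against 0.823% of all genes. Of the 8 members, 6 were not dim (defined with the members' signal). Among these 6, Zfp677, Zfp947 and Zfp982 read under the dim bound on every ERT2 array. In 37 members (26.6%) every Cre-ERT2 array read above every ERT2 array, against 17.5% of all genes. In 16 members (11.5%) every Cre-ERT2 array read below, against 10.8%. Among genes that were not dim, the members' shares were 28.9% above and 12.4% below, against 21.2% and 13% of all such genes. The median log2 difference was 0.048 over the members and 0.021 over all genes. The typical member thus moved little. The group was put forward with results of these arrays known, so the shares are a description, and differences between the gene sets were not tested.

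**Figure D1:**
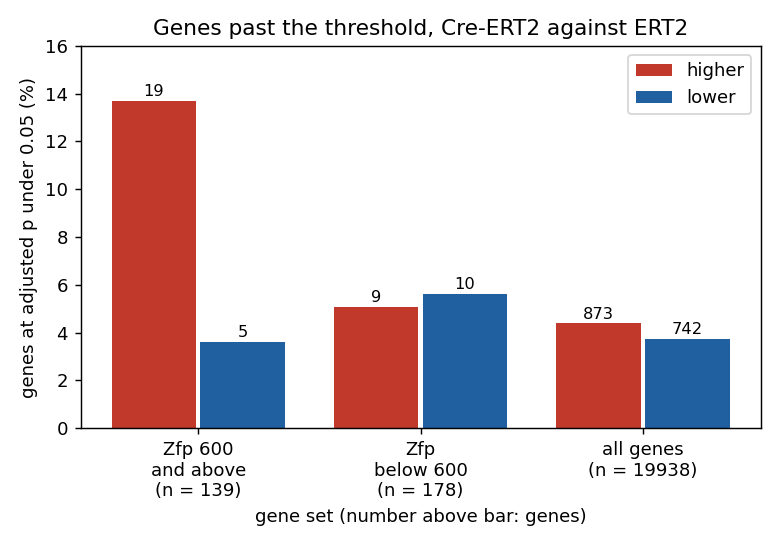
Percentage of genes at limma adjusted p under 0.05 (y axis) in the 139 Zfp genes numbered 600 and above, the 178 numbered below 600 and all 19938 genes; red bars are higher and blue bars lower in Cre-ERT2, with the number of genes above each bar. The tallest bar is that of the 19 risen genes numbered 600 and above, at 13.7%.

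The counts depended on single arrays, although a fit without 1 array also has fewer samples to test. The number of risen members was 12 without ERT2 replicate 1 and 22 without ERT2 replicate 2, and lay between 13 and 16 without any other array. The number of fallen members was 3 without ERT2 replicate 2, 2 when Cre-ERT2 replicate 2 or either other ERT2 replicate was left out, and 1 when either Cre-ERT2 replicate 1 or 3 was left out. Under cyclic loess scaling 19 rose and 9 fell. Of the 24 called members, 13 kept their call in each of the 6 fits that left out 1 array.

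Sox4 itself read 1459, 1372 and 1237 in the ERT2 arrays and 599, 541 and 499 in the Cre-ERT2 arrays, and its log2 difference was -1.31 (SE 0.0912, limma adjusted p = 0.000434; exact two-sided permutation test p = 0.1, the smallest that 3 against 3 samples allow). The position of its probes within the gene was not analysed here, so this value may not check the deletion itself. Median intensity per array lay between 273 and 279. ERT2 replicate 2 stood farthest from its group, with SDs of its log2 differences from the other controls of 0.231 and 0.242, against 0.184 between those. Of 12 pre-B cell markers 11 were measured and 0 were dim by the bound given with the members' signal, against 3 of 6 T-cell, 3 of 3 natural killer, 2 of 6 myeloid, 0 of 2 erythroid and 1 of 4 stromal markers. Among the pre-B markers, Rag1, Rag2 and Il7r, the interleukin 7 receptor gene, fell (Il7r fell by 0.93, SE 0.0453, limma adjusted p = 0.000118), and Dntt, which adds bases at rearranging receptor genes, rose by 1.33 (SE 0.0914, limma adjusted p = 0.000412). Their summed intensity was 77566 to 78171 in ERT2 and 72584 to 74192 in Cre-ERT2 samples, with no overlap. The summed intensity of the 6 myeloid markers was 1125 to 1192 in ERT2 and 1586 to 1777 in Cre-ERT2 samples. Of these, Lyz2, the macrophage lysozyme, rose by 1.40 (SE 0.108, limma adjusted p = 0.000654), Itgam, an integrin of myeloid cells, fell by 0.49 (SE 0.076, limma adjusted p = 0.0129), and Csf1r, Mpo, Elane and Cd14 did not pass. Among the T-cell, natural killer, erythroid and stromal markers none passed with limma (1 had an unadjusted p under 0.05), and their summed intensities overlapped between the groups. The part of other cell types in the results was not tested. In bulk RNA, fewer cells of a type and less RNA per cell cannot be told apart.

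Members differed widely in signal. Their mean log2(intensity + 1) over the 6 arrays ran from 3.83 to 13.42. The files give no detection call, so a probe set was called dim when this mean was under 7.16, the 90th percentile of 1245 probe sets of olfactory, vomeronasal and taste receptor genes, which pre-B cells are not known to use. By that bound 18 members were dim and 121 were not. Of the dim members 2 passed the test, Zfp600 and Zfp980. Among the others 17 rose (14.0%, against 5.72% of all genes that were not dim) and 5 fell (4.13%, against 4.78%). The bound uses a mean that includes the Cre-ERT2 arrays, so a risen gene can pass it through them. Zfp677, Zfp947 and Zfp982 did so, with ERT2 means of 7.07, 6.65 and 6.88 and Cre-ERT2 means of 8.17, 7.97 and 7.91. These shares thus cannot show whether rises stay as frequent once genes dim in the controls are removed. The brightest probe sets belonged to Zfp706, Zfp971, Zfp871, Zfp664 and Zfp809, and none of these 5 genes passed. The dimmest were those of Zfp979, Zfp640, Zfp811, Zfp735 and Zfp616, whose arrays read between 12.5 and 41.6, and none of them passed either. Brightness depends on the probes, so it does not rank the transcripts.

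**Figure D2:**
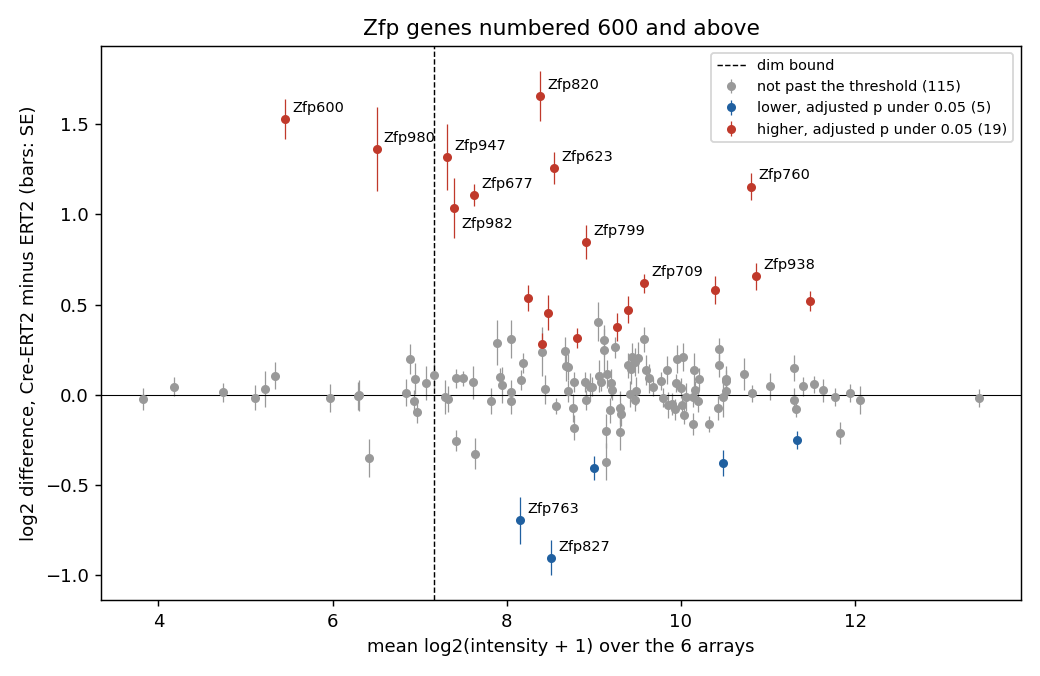
Each point is 1 of the 139 genes, with its mean log2(intensity + 1) over the 6 arrays on the x axis and its log2 difference, Cre-ERT2 minus ERT2, on the y axis; bars are limma's standard errors, red and blue mark genes past the threshold and the dashed line is the dim bound of 7.16. Most genes lie near 0, the rises reach 1.66 and the deepest fall is -0.90.

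The largest rise was on chromosome 17, in a row of measured Zfp genes from Zfp677 to Zfp946. At a limit of 5 genes between neighbours it falls into separate runs, Zfp677 to Zfp943 and Zfp947 to Zfp946. Zfp820 (probe set 10448186) read 191, 219 and 157 in the ERT2 arrays and 524, 643 and 616 in the Cre-ERT2 arrays. The groups were far apart, with every control under every Cre-ERT2 array, and the log2 difference was 1.66 (SE 0.137, limma adjusted p = 0.000909), a 3.15-fold rise. Close by, Zfp760 (probe set 10442240) read 1109.5, 1329 and 1173 in the ERT2 arrays and 2627, 2756 and 2635 in the Cre-ERT2 arrays. That was a 2.23-fold rise from a much stronger signal (log2 difference 1.15, SE 0.0756, limma adjusted p = 0.000345). At one end of the row Zfp677 read 129.9, 137 and 132 in the ERT2 arrays and 285, 309 and 271 in the Cre-ERT2 arrays, and its difference of 1.11 had the smallest error of the large rises (SE 0.0628, limma adjusted p = 0.000209). Farther along, Zfp947 read 79.6, 134 and 92.4 in the ERT2 arrays and 245, 264 and 241 in the Cre-ERT2 arrays, with 1 control array, ERT2 replicate 2, closer to the Cre-ERT2 arrays than the other controls. Zfp947 rose by 1.32 (SE 0.182, limma adjusted p = 0.0081). The ERT2 arrays of Zfp677 and of Zfp947 all read under the dim bound, so both rises start from dim signal.

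The rise did not extend to every gene of that row. From Zfp677 to Zfp946 the array measured 16 genes, all of them Zfp genes and 11 of them numbered 600 or above, and of those 4 rose and 1 fell. Zfp229, numbered below 600 and lying between Zfp760 and Zfp820, rose by 0.40 (SE 0.0833, limma adjusted p = 0.0426). Zfp983, next to Zfp760 on the other side, read 2682, 2865 and 2877 in the ERT2 arrays and 2405, 2343 and 2323 in the Cre-ERT2 arrays and fell by 0.25 (SE 0.0505, limma adjusted p = 0.0372). Leaving out any 1 of the 6 arrays ended its call (adjusted p 0.0608 to 0.163). Zfp942 and Zfp943, the measured genes that follow Zfp820, had differences of 0.11 and 0.14 (limma adjusted p = 0.63 and 0.458). Zfp948, Zfp944, Zfp758 and Zfp946 had differences of -0.072, 0.21, 0.41 and -0.35 and did not pass (limma adjusted p = 0.802, 0.235, 0.0933 and 0.138). Among the 20 measured genes that flank the row, 10 on each side, 0 passed with limma and 1 had an unadjusted p under 0.05, and their differences ran from -0.10 to 0.26. Of these flanking genes 12 were dim vomeronasal receptor genes, a class used here as the measure of dim signal, so 8 could bear on the contrast. Among those 8, Zfp160, Zfp945, Zfp40, Zfp213 and Zfp13 are Zfp genes themselves, so the flanks do not lie wholly outside the family.

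A second row on chromosome 17 held genes that moved in both directions. Zfp799 read 335, 410.3 and 336 in the ERT2 arrays and 606, 667 and 669 in the Cre-ERT2 arrays and rose by 0.85 (SE 0.0939, limma adjusted p = 0.00321). Zfp870, its neighbour, read 281, 342 and 290.3 in the ERT2 arrays and 397, 456 and 397 in the Cre-ERT2 arrays and rose by 0.45 (SE 0.0966, limma adjusted p = 0.0461) and lost its call in each fit with 1 array left out except that without ERT2 replicate 2 (adjusted p 0.099 to 0.15). Zfp763 read 304, 440.3 and 349 in the ERT2 arrays and 220.3, 228 and 219 in the Cre-ERT2 arrays. All 3 Cre-ERT2 arrays lay close together and below the controls, which were spread widely, and Zfp763 fell by 0.69 (SE 0.13, limma adjusted p = 0.0284). Leaving out any Cre-ERT2 replicate, or ERT2 replicate 3, ended its call (adjusted p 0.0906 to 0.107). Zfp871, Zfp811 and Zfp952 of the same row had differences of 0.010, 0.015 and 0.071 and did not pass (limma adjusted p = 0.96, 0.939 and 0.64). Genes of other families beside these also passed: Cyp4f14, a cytochrome P450 gene within the row, fell by 0.40 (SE 0.0821, limma adjusted p = 0.0394), and Cyp4f16 and Akap8l, which precede it, rose by 0.79 and 0.31 (limma adjusted p = 0.00119 and 0.0263). These 3 genes were chosen after their values were seen.

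On chromosome 4 the risen members were Zfp600, Zfp980, Zfp982 and Zfp991. The sequences below are the RefSeq start regions (GRCm38.p6) of 4 members on this chromosome. Of these, Zfp600 and Zfp980 rose, and Zfp979 and Zfp985 did not pass. Each runs from 250 bases before to 50 after the annotated start along the gene's strand. They were picked for being alike, and whether such likeness goes with a rise was not tested. The start region of Zfp982 was not of this kind, with 46% of its bases the same as in Zfp600 and 49% as in Zfp980. Zfp600 lies at chr4:146156577-146156876 (plus strand), Zfp979 at chr4:147642459-147642758 (minus strand), Zfp980 at chr4:145670447-145670746 (plus strand) and Zfp985 at chr4:147553027-147553326 (plus strand). Zfp600 has a further annotated start, which is not shown. Capitals mark bases that differ from, or have no partner in, the Zfp600 sequence in a global alignment.
Zfp600: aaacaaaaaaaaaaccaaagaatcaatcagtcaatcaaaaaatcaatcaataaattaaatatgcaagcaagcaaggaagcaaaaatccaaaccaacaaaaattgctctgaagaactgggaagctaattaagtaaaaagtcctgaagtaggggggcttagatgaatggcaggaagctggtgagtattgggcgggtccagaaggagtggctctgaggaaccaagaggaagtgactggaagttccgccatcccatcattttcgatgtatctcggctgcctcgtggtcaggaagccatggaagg
Zfp979: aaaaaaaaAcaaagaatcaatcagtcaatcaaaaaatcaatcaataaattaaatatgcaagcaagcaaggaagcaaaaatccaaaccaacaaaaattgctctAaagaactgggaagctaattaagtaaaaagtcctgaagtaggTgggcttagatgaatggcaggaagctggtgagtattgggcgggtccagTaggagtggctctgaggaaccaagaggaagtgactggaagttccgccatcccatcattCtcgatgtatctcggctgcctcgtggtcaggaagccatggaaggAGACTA
Zfp980: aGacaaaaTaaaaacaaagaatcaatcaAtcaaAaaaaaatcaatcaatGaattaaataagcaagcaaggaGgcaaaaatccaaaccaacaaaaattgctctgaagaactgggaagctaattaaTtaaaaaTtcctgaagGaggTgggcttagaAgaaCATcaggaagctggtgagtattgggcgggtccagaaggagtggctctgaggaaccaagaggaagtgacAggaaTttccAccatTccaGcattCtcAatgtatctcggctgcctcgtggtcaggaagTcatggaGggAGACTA
Zfp985: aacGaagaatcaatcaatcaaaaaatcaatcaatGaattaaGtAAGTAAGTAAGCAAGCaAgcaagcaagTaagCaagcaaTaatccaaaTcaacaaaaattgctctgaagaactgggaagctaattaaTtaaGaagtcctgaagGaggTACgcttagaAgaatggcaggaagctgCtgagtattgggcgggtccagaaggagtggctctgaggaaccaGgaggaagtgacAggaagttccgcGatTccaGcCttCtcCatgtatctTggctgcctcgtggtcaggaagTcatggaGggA

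Against Zfp600, 96.3% of the bases were the same in Zfp979, 90.3% in Zfp980 and 85.3% in Zfp985. Aligned the same way, pairs of members outside one run of neighbouring Zfp genes had a median of 50.3% and reached 97.3%. The pairs given here count among those, and pairs within one run had a median of 52.7%. The 4 genes did not give the same readings. Zfp600 (probe set 10510191) read 22.5, 24.6 and 27.6 in the ERT2 arrays and 75.8, 64 and 81.4 in the Cre-ERT2 arrays. It was dim in both groups, and its arrays did not overlap between groups (log2 difference 1.53, SE 0.111, limma adjusted p = 0.000501). Zfp980 read 61.8, 40.6 and 68.6 in the ERT2 arrays and 186, 127 and 128 in the Cre-ERT2 arrays, a rise of 1.36 (SE 0.232, limma adjusted p = 0.0197) with more spread between arrays. Leaving out Cre-ERT2 replicate 1 or 3, or ERT2 replicate 1, ended its call (adjusted p 0.052 to 0.06). Zfp979 read 13.1, 14.4 and 12.5 in the ERT2 arrays and 13.1, 13.1 and 13 in the Cre-ERT2 arrays. These were the dimmest readings of any member, at which a rise could be missed (difference -0.021, SE 0.0618). Zfp985 read 521, 559 and 573 in the ERT2 arrays and 680.5, 631 and 672 in the Cre-ERT2 arrays. Its groups did not overlap, but the difference of 0.26 did not pass (SE 0.0593, limma adjusted p = 0.0562).

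The row from Zfp980 to Zfp933, with gaps of more than 5 genes between some of its Zfp genes, held 3 further members. Zfp982 read 118, 101 and 133 in the ERT2 arrays and 287, 192 and 249 in the Cre-ERT2 arrays and rose by 1.03 (SE 0.165, limma adjusted p = 0.0153), a call that ended without ERT2 replicate 1 or Cre-ERT2 replicate 3 (adjusted p 0.0631 to 0.0698). Zfp991 read 1126, 1179.6 and 997 in the ERT2 arrays and 1559, 1722 and 1655 in the Cre-ERT2 arrays and rose by 0.58 (SE 0.0776, limma adjusted p = 0.00685). The ERT2 arrays of Zfp982 all read under the dim bound. Zfp933, at the end of the row, had a difference of 0.21 (limma adjusted p = 0.287). From Zfp980 to Zfp933 the array measured 8 genes, and 4 of the 7 members rose. Of the 20 measured genes that flank the row, 1 passed, Dhrs3, a retinal reductase gene, which rose by 0.60 (SE 0.0626, limma adjusted p = 0.0025) and was chosen after its value was seen.

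**Figure D3:**
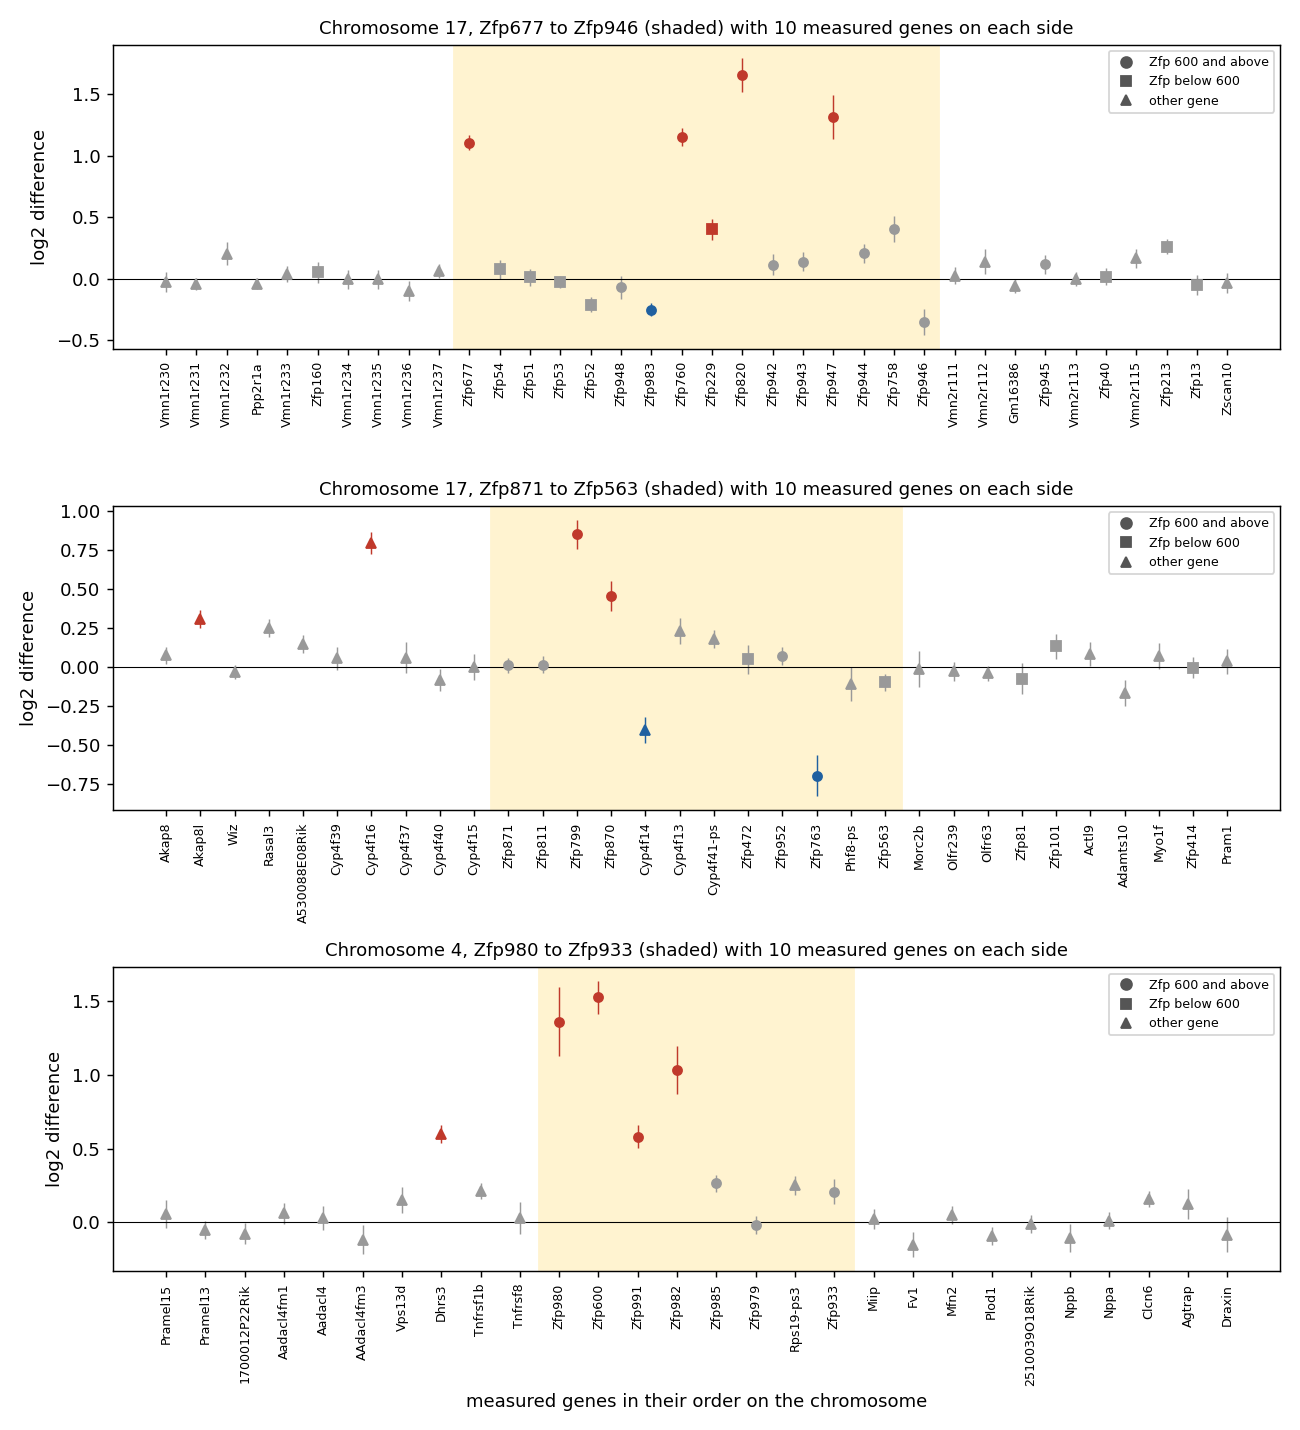
Log2 difference, Cre-ERT2 minus ERT2 (y axis, bars are limma's standard errors), of measured genes in their order on the chromosome (x axis), for the rows Zfp677 to Zfp946, Zfp871 to Zfp563 and Zfp980 to Zfp933 (shaded) and 10 genes on each side; red marks genes that rose, blue genes that fell and grey genes that did not pass. In the first row risen genes such as Zfp820 (1.66) stand beside genes near 0 such as Zfp942 (0.11). Of the genes that flank it, 12 are dim vomeronasal receptor genes.

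Together these 3 rows held 24 members, of which 10 rose and 2 fell. The remaining 115 members had 9 rises (7.83%) and 3 falls (2.61%), against 4.38% and 3.72% of all genes. The rows were chosen after the values were seen, so no test was made of them. The mice were a cross of strains, and whether all samples carry the same parental haplotype at these rows was not tested. Over all measured genes of chromosome 17, 4.27% rose and 3.42% fell, and over those of chromosome 4, 3.99% rose and 3.9% fell.

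Paralogues also shared probe sets. A further 34 probe sets were paired with several genes that included a Zfp gene numbered 600 or above, and 20 such genes, Zfp932, Zfp981 and Zfp987 among them, had no probe set of their own. At adjusted p under 0.05, 7 of these probe sets were higher and 0 lower (limma; 2 lower at an unadjusted p under 0.05), against 3.21% and 2.84% of all probe sets. Some of the 34 probe sets named the same genes or had identical values on every array, so they are not separate measurements. Each that rose included Zfp975 or a gene of the row from Zfp980 to Zfp933. A probe set shared by Zfp600, Zfp979, Zfp980, Zfp981, Zfp987 and Rex2 rose by 0.76 (SE 0.0697, limma adjusted p = 0.00139). Shared probe sets that included Zfp991 and Zfp982 and were called rose by 0.26 to 0.29. Those shared by Zfp975 with Zfp936 or Zfp976 rose by 0.33 to 0.87. Zfp983, which fell on its own probe set, was also covered by probe sets shared with Gm10509, or with Gm10509 and Zfp51. These had differences of -0.12 and -0.075 and did not pass (limma adjusted p = 0.577 and 0.855). From such a probe set the genes cannot be told apart, and whether a probe set paired with 1 gene also binds its paralogues was not tested.

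Outside the 3 rows the largest rise was that of Zfp623. It read 250.3, 261 and 211 in the ERT2 arrays and 555, 564 and 604 in the Cre-ERT2 arrays. Zfp623 rose by 1.26 (SE 0.0894, limma adjusted p = 0.000465), and the SD of its log2 signal was 0.162 in ERT2 and 0.065 in Cre-ERT2. Zfp707, the Zfp gene beside it, read 478, 469 and 450.0 in the ERT2 arrays and 479, 516 and 473 in the Cre-ERT2 arrays and did not pass (log2 difference 0.070, limma adjusted p = 0.644). On chromosome 10 Zfp938 read 1408, 1587 and 1454 in the ERT2 arrays and 2439.9, 2162 and 2410.3 in the Cre-ERT2 arrays and rose by 0.66 (SE 0.0727, limma adjusted p = 0.00321). Its neighbour Zfp873 had a difference of 0.10 (limma adjusted p = 0.66). The annotated start regions of these genes were 69.3% identical, and a link between such likeness and the differences was not tested. On chromosome 8 Zfp709 read 596, 628 and 622 in the ERT2 arrays and 939.7, 912 and 985 in the Cre-ERT2 arrays, and its rise of 0.62 was among the most precisely measured (SE 0.052, limma adjusted p = 0.00097). The genes that follow it, Zfp882, Zfp617 and Zfp961, had differences of 0.20, 0.18 and 0.058 and did not pass (limma adjusted p = 0.306, 0.295 and 0.653).

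Members that rose by less than 2-fold and lie apart from other called members followed. Zfp949 on chromosome 9 read 244, 274 and 237 in the ERT2 arrays and 353, 383 and 359 in the Cre-ERT2 arrays and rose by 0.54 (SE 0.0714, limma adjusted p = 0.00672). Zfp770 on chromosome 2, the brightest of the risen members, read 2319.8, 2474 and 2371 in the ERT2 arrays and 3273, 3488 and 3515 in the Cre-ERT2 arrays and rose by 0.52 (SE 0.0536, limma adjusted p = 0.00232). Both kept the groups well apart on every array. Zfp672 read 552, 624 and 536 in the ERT2 arrays and 823, 794 and 755 in the Cre-ERT2 arrays and rose by 0.47 (SE 0.0728, limma adjusted p = 0.0131), and its dimmer second probe set gave 0.22 and did not pass (limma adjusted p = 0.115). Leaving out Cre-ERT2 replicate 1 or 2, or ERT2 replicate 1, ended its call (adjusted p 0.0561 to 0.0631), and Zfp692 beside it had a difference of 0.024 (adjusted p = 0.883).

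The smallest of these rises lost their calls when single arrays were left out, which also leaves fewer samples to test. Across all alternatives the differences lay between 0.32 and 0.45 for Zfp831, 0.27 and 0.36 for Zfp975, and 0.24 and 0.31 for Zfp708. Zfp831 read 530.1, 599.8 and 499 in the ERT2 arrays and 673, 714 and 724 in the Cre-ERT2 arrays and rose by 0.38 (SE 0.0782, limma adjusted p = 0.0423), a call that held without ERT2 replicate 2 and in no other fit with 1 array left out (adjusted p 0.0881 to 0.161). Zfp975 read 379.6, 410.2 and 417 in the ERT2 arrays and 489, 511 and 498 in the Cre-ERT2 arrays and rose by 0.31 (SE 0.0552, limma adjusted p = 0.0228), and leaving out any Cre-ERT2 replicate, or ERT2 replicate 1, ended that call (adjusted p 0.0678 to 0.102). Zfp708, the 1 called gene of a long row of Zfp genes on chromosome 13, read 313, 307 and 302 in the ERT2 arrays and 359.6, 399 and 366 in the Cre-ERT2 arrays and rose by 0.28 (SE 0.0566, limma adjusted p = 0.0365) and did not pass in any fit with 1 array left out (adjusted p 0.0703 to 0.116). In that row Zfp759, Zfp953, Zfp748 and Zfp738 had differences of 0.31, 0.087, 0.028 and 0.25 (limma adjusted p = 0.052, 0.575, 0.896 and 0.35).

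**Figure D4:**
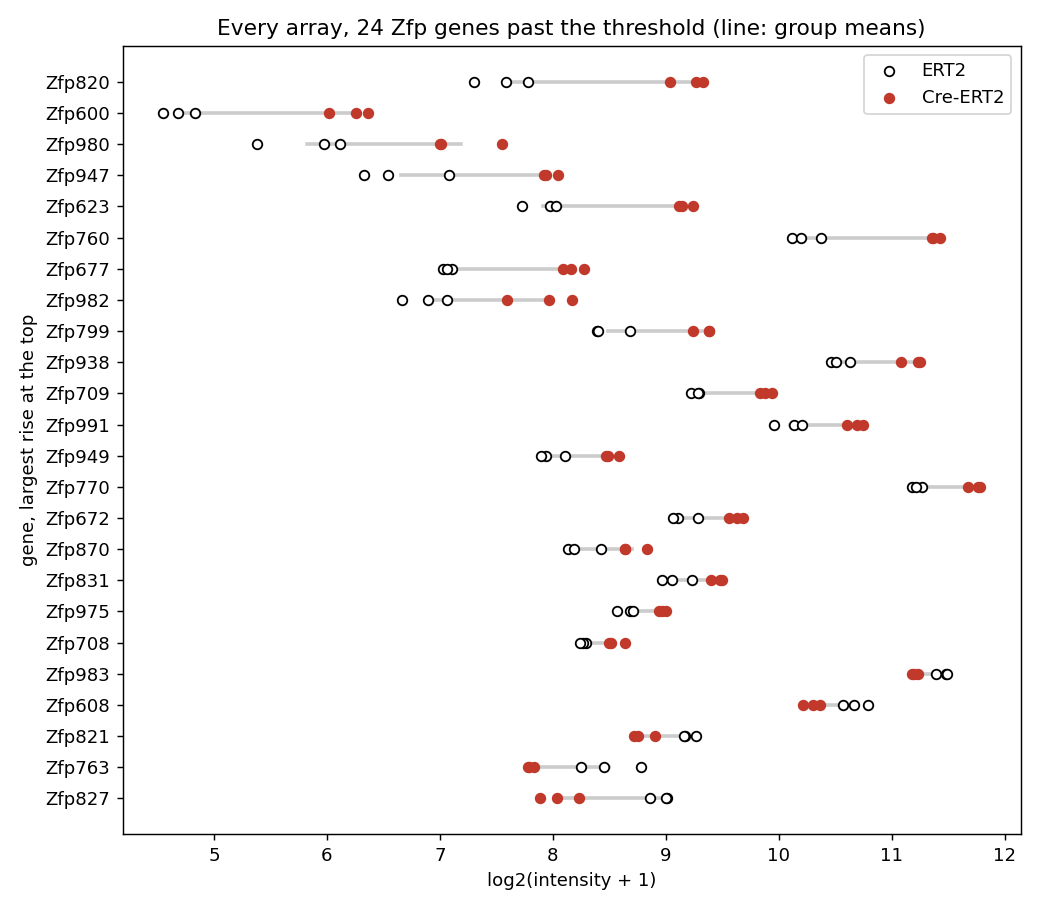
Log2(intensity + 1) on each array (x axis) of the 24 members past the threshold (y axis, largest rise at the top); open circles are the 3 ERT2 arrays, red circles the 3 Cre-ERT2 arrays and grey lines join the group means. In each of the 24 genes the groups do not overlap, from Zfp820 (log2 difference 1.66) to Zfp827 (-0.90).

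Among the 5 members that fell, Zfp827 fell farthest. The human counterpart of Zfp827 recruits the NuRD chromatin complex to telomeres in cells that maintain them without telomerase. Zfp827 read 515, 511 and 463 in the ERT2 arrays and 299, 236 and 262 in the Cre-ERT2 arrays, a fall of 0.90 on the log2 scale (SE 0.0957, limma adjusted p = 0.00263), and it kept its call without any 1 of the arrays. Zfp821 read 576, 615 and 572 in the ERT2 arrays and 432, 479 and 421 in the Cre-ERT2 arrays and fell by 0.41 (SE 0.0666, limma adjusted p = 0.0168). Leaving out replicate 1 or 3 of either group ended its call (adjusted p 0.0503 to 0.0789). Zfp763 and Zfp983, described with the rows on chromosome 17, also fell.

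Zfp608 and Zfp609 form a pair of related genes studied in thymocytes, where Zfp608 holds down the recombinase genes Rag1 and Rag2. Zfp608 read 1621, 1769.7 and 1516 in the ERT2 arrays and 1191, 1319.7 and 1261 in the Cre-ERT2 arrays and fell by 0.38 (SE 0.0739, limma adjusted p = 0.0338), a call lost without any array other than ERT2 replicate 3 (adjusted p 0.0591 to 0.123). Zfp609, which works with the Integrator complex and a cohesin loader in mouse neural progenitors, read 1389.7, 1359 and 1324 in the ERT2 arrays and 1200.2, 1220.4 and 1220.5 in the Cre-ERT2 arrays. Its groups did not overlap, but the difference of -0.16 did not pass (SE 0.0452, limma adjusted p = 0.114). In the same cells Rag1 read 1332, 1386 and 1048 in the ERT2 arrays and 655, 719 and 646 in the Cre-ERT2 arrays, and Rag2 read 584, 598 and 607 in the ERT2 arrays and 219, 262 and 223 in the Cre-ERT2 arrays. Rag1 fell by 0.89 (limma adjusted p = 0.00595) and Rag2 fell by 1.35 (limma adjusted p = 0.000214), in the same direction as Zfp608.

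Of 17 zinc-finger genes chosen for a known role, 16 had a probe set of their own, 2 fell (Zfp827 and Zfp608) and 0 rose (limma), beside 3.72% and 4.38% of all genes. At an unadjusted p under 0.05, 4 were lower and 0 higher. Zfp809, the KRAB protein that recognises the primer binding site of murine leukaemia viruses and silences them through TRIM28, read 3467, 3685 and 3399 in the ERT2 arrays and 3465, 3492 and 3495 in the Cre-ERT2 arrays. The arrays overlapped, and the difference was -0.013 (SE 0.0502, limma adjusted p = 0.95). Zfp647, a KRAB protein that associates with TRIM28, read 463, 498 and 434 in the ERT2 arrays and 403, 434 and 391 in the Cre-ERT2 arrays, with a difference of -0.18 (SE 0.0708, adjusted p = 0.258). Zfp932, a silencer of endogenous retroviruses, was covered by probe sets shared with Gm15446, which gave -0.023 and 0.072 (limma adjusted p = 0.946 and 0.799). Further probe sets, shared by Zfp932 with Zfp950, Arid4b and other genes, gave -0.039 and -0.015 (limma adjusted p = 0.884 and 0.959).

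Members known for other work did not pass either. Zfp622, a factor of ribosome assembly, had a difference of 0.0077 (SE 0.0466), and Zfp706, a small protein that limits Klf4 expression in mouse embryonic stem cells, had -0.015 (SE 0.0504) on its brighter probe set and 0.098 on the other. Chromatin partners gave 0.048 for Zfp644, which joins the G9a and GLP methyltransferases, -0.071 for Zfp687, a member of a complex with ZMYND8, and 0.014 for Zfp618, a partner of UHRF2. Zfp652, a repressor that acts with CBFA2T3, had -0.079, and Zfp703, a transcriptional corepressor, had 0.15. In both of these the arrays of the groups did not overlap, yet adjusted p was 0.489 and 0.355. Zfp746, a repressor of Ppargc1a known as PARIS, had -0.027, and Zfp830, needed for early embryonic cells to survive, had 0.041. Zfp750, a regulator of epidermal differentiation, had -0.011, and Zfp711, an X-linked brain gene that works with the demethylase PHF8 in human cells, had 0.11 at a dim signal. Limma adjusted p of these 11 genes lay between 0.355 and 0.979.

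Members that did not pass had differences between -0.37 and 0.41. The largest of them were those of Zfp758 (0.41, adjusted p = 0.0933), Zfp940 (-0.37, 0.107), Zfp946 (-0.35, 0.138), Zfp974 (-0.33, 0.0949) and Zfp619 (0.31, 0.196), all from limma. In each of these 5 genes the groups did not overlap, with Cre-ERT2 above in Zfp758 and Zfp619 and below in the others. The number that chose the group has no measured meaning: just inside it Zfp600, Zfp605 and Zfp606 had log2 differences of 1.53, -0.033 and -0.11, and just outside it Zfp599, Zfp598 and Zfp597 had -0.11, -0.041 and 0.028. Zfp788 had a pair of probe sets with identical values on every array, which were counted once.

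Corepressor genes through which KRAB proteins act gave few calls, too few to compare with other genes. Of 33 genes listed, 31 were measured, 0 were dim, 1 rose and 1 fell. The shares stood at 4.38% and 3.72% over all genes, and at 5.72% and 4.78% over genes that were not dim. The median log2 difference of the 31 genes was -0.032. Trim28, the scaffold that KRAB domains bind, read 6457, 6419 and 6097 in the ERT2 arrays and 6124, 6352 and 6079 in the Cre-ERT2 arrays, with overlapping groups (log2 difference -0.032, SE 0.0491, limma adjusted p = 0.842). Setdb1, the histone methyltransferase recruited by TRIM28, had a difference of -0.0004 (SE 0.0461, adjusted p = 0.999). Tasor, a subunit of the HUSH silencing complex, read 1971, 2477 and 2091 in the ERT2 arrays and 1355, 1499 and 1518 in the Cre-ERT2 arrays and fell by 0.58 (SE 0.0971, limma adjusted p = 0.0191). Morc2a, an ATPase that acts with HUSH, read 2820.2, 3003 and 2699 in the ERT2 arrays and 3411, 3822 and 3614 in the Cre-ERT2 arrays and rose by 0.35 (SE 0.0662, limma adjusted p = 0.0302). Leaving out any Cre-ERT2 replicate, or ERT2 replicate 3, ended the call of Tasor (adjusted p 0.0617 to 0.0694). Leaving out Cre-ERT2 replicate 2 or 3, or else ERT2 replicate 1 or 3, ended that of Morc2a (adjusted p 0.0955 to 0.12).

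Start regions of 300 bases were at hand for 120 members, 149 regions in all, and were searched on both strands for short motifs. The SOX motif AACAAAG occurred in 7 of them (4.7%), against 5.85% of 32851 regions of the same length over all genes. Among the 22 regions of risen members it occurred in 3, those of Zfp760, Zfp980 and Zfp982, and among the 6 regions of fallen members in 0. Of the 4 paralogues printed above, Zfp979 and Zfp980 hold it and Zfp600 and Zfp985 do not. Zfp600 and Zfp980 rose, and Zfp979 was too dim to judge. The CCAAT motif occurred in 53.7% of the members' regions and in 37.4% of all regions, and it was in 15 of the 22 regions of risen members and 4 of the 6 of fallen members. The GC box GGGCGG occurred in 45.6% of the members' regions against 35.7% of all, in 10 of the risen and 4 of the fallen members' regions. For the TATA box TATAAA the shares were 6.04% and 13.6%, with 3 risen and 1 fallen members' regions. A match to such letters describes the sequence and does not show that a factor binds there.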

How the data were processed

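RNA of 6 samples was measured on Affymetrix arrays. The authors' deposited intensities came from RMA, per the submitters' processing notes, a method of background correction, quantile normalization and probe summary; its version and the array's build are not stated. The values are on a linear scale, 6.27 to 26714, so log2(intensity + 1) was used, which understates changes of dim probe sets slightly. Quantile normalization would hide a shift of all genes. The number of arrays limits the precision.

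Of 35556 probe sets, all tested, 21789 name 1 gene, 1621 several and 12146 none in the probe table; 21698 of the first matched the gene table (GRCm38.p6), as did 138 of 139 members. A gene took its brightest probe set by the mean over 6 arrays. Groups were compared in R 4.3.3 with lmFit and eBayes of limma 3.58.1, without covariates; p-values were adjusted by Benjamini and Hochberg over the whole array. The fit was tested on simulated data, and errors are limma's. Neighbours had at most 5 genes between them. Sequences were aligned with Biopython 1.88. Protein descriptions were planned but not made. Genes named were the called members, the 5 largest not called, the 5 brightest and dimmest, those with a known role, neighbours of called members, and genes next to the number 600; others were chosen after their values were seen. Members and lists were chosen with earlier results of these data known. Alternatives were eBayes settings, filters, scalings, array weights, a replicate block, pseudocounts, probe set means, a minimum fold and single arrays left out.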

Additional observations from a re-analysis of the deposited data

How the results depend on the processing

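Risen members numbered 19 and fallen members 5 as reported. They numbered 30 and 8 with estimated array weights, 11 and 2 with a minimum fold of 1.5, 24 and 10 with probe sets of 1 gene alone, 23 and 8 after a further quantile normalization, 19 and 9 after cyclic loess, and 12 to 22 and 1 to 3 without 1 array. Without dim members, an alternative chosen after seeing the data, they were 17 and 5. Trend, robust fitting, the brighter 50% of probe sets, median centring, a pseudocount of 16 or none, and averaging a gene's probe sets kept both counts within 1.5 times. Corepressor genes that rose and fell numbered 3 and 2 with array weights, 0 and 0 with the minimum fold, 1 and 2 after cyclic loess or further quantile normalization, and 0 to 1 and 0 to 1 without 1 array. The cause of these moves was not tested. Sox4 kept its call under all alternatives (-1.38 to -1.25 without 1 array).

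Correlations of deviations from the group means between samples with the same number were 0.20, 0.34 and -0.049, so the numbers were not taken to pair the samples. Not every sample correlated best with its own number. With the replicate block 17 members rose and 4 fell, and Zfp708, Zfp831 and Zfp983 lost their calls.

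None of the 24 called members changed direction under any alternative, and 10 kept their call under every alternative that gave them a value. The filter to the brighter 50% of probe sets gave none for Zfp600, Zfp677, Zfp947, Zfp980 and Zfp982. The minimum fold ended the calls of 11 members, Zfp608, Zfp672, Zfp708, Zfp770, Zfp821, Zfp831, Zfp870, Zfp949, Zfp975, Zfp983 and Zfp991, cyclic loess those of Zfp708 and Zfp870, and median centring that of Zfp708. Of the genes that had not passed, some changed sign, with adjusted p of 0.681 or more. Under median centring the sign changed for Zfp622 (-0.0036), Zfp871 (-0.0011). Under a further quantile normalization the sign changed for Zfp622 (-0.018), Zfp871 (-0.0032), Zfp811 (-0.020), Zfp692 (-0.0074). Under cyclic loess the sign changed for Zfp618 (-0.012), Zfp622 (-0.026), Zfp871 (-0.015), Zfp811 (-0.0020), Zfp692 (-0.011), Zfp748 (-0.0089). Under array weights the sign changed for Zfp618 (-0.041), Zfp809 (0.0036), Zfp735 (0.0064), Zfp605 (0.042), Zfp948 (0.040). With the mean of the probe sets the sign changed for Zfp706 (0.042). Without 1 array the lowest and highest values differed in sign for Zfp618 (-0.042 to 0.046), Zfp622 (-0.011 to 0.032), Zfp706 (-0.041 to 0.0054), Zfp746 (-0.073 to 0.026), Zfp750 (-0.092 to 0.043), Zfp809 (-0.037 to 0.021), Zfp830 (-0.020 to 0.11), Zfp871 (-0.0068 to 0.041), Zfp971 (-0.072 to 0.048), Zfp979 (-0.065 to 0.034), Zfp811 (-0.0013 to 0.047), Zfp735 (-0.052 to 0.040), Zfp616 (-0.046 to 0.14), Zfp605 (-0.096 to 0.029), Zfp748 (-0.0035 to 0.071) and Zfp948 (-0.13 to 0.017).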
